A study of Homo sapiens with 6 samples.

Results

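The genes described here encode the enzymes that make poly(A) tails and the proteins that bind them: the poly(A) polymerases PAPOLA and PAPOLG, the poly(A)-binding proteins PABPN1, PABPC1 and PABPC4, and the PABP-interacting proteins PAIP1 and PAIP2. These 7 genes were chosen by name and function, and their reads were taken from fixed hg19 windows on the strand of each gene. The windows held 42 of the 49965 poly(A) sites called in all 6 libraries. Of the 42 sites, 23 held at least 5% of their window's reads at called sites in at least 1 library and are described singly.

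PAPOLA and PAPOLG are nuclear enzymes that add adenosines to the 3′ end left by cleavage of the transcript. PABPN1 binds the growing tail in the nucleus and stimulates the polymerase, and PABPC1 and PABPC4 bind finished tails in the cytoplasm, where they act in translation and mRNA stability. PAIP1 binds cytoplasmic PABP and stimulates translation, whereas PAIP2 competes for PABP and represses it. The PABPC1 mRNA carries an A-rich element in its 5′ UTR that PABPC1 itself binds, which is a known form of feedback on its translation.

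The libraries came from HEK293 cells, a human embryonic kidney line. They were made by A-seq, which primes reverse transcription at the start of the poly(A) tail, so a read is meant to mark a transcript's 3′ end. Reads primed at runs of A inside a transcript would not mark such an end, and their part was not tested. The cells were given siRNA against CF Im25, CF Im59 or CF Im68, which are the 3 subunits of cleavage factor Im, a complex that binds RNA upstream of poly(A) sites, or no siRNA. The CF Im25, CF Im59 and no siRNA libraries were set against scrambled siRNA, all 4 with RNA broken by alkaline hydrolysis, and these 3 comparisons share that control library. CF Im68 siRNA was set against its own scrambled siRNA library, both with RNA cut by RNase I, and siRNA-treated cells were collected 3 days later. With 1 library of 1 cell line per group, no difference could be set against a spread between replicates, and intervals cover the counting error of reads only. Copies made by PCR are not independent molecules, and intervals may be too narrow for that reason as well. Libraries held 5351980 to 18183644 reads, the fewest with RNase I and scrambled siRNA. Levels are given as CPM, the usual scaling to library size, here to the reads at called nuclear sites. They were not corrected for transcript length, because A-seq is designed to read 1 end per molecule. In bulk RNA, fewer cells that express a gene and less RNA per cell cannot be told apart.

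Sequences around the sites that carry the results are shown to set sites with a poly(A) signal beside sites in A-rich stretches. They were read from GENCODE 29 transcripts (GRCh38) at the distance of each site from the most distal site of its gene, a placement that is exact only to about 25 nt. Capitals mark 1 feature per line: the hexamer AATAAA, its variant ATTAAA, or a run of 6 or more A. In lines marked for a hexamer, runs of A are not marked. The most distal PAPOLA, PABPC4 and PAIP2 lines hold such a run as well as AATAAA. All lines run 5′ to 3′ along the transcript.
PAPOLA proximal 3′ UTR site (chr14:96565022-96565051, plus strand): attcAATAAAactgagattgaatcggtaaa
PAPOLA most distal site (chr14:96567079-96567108, plus strand): cattgaaaacacAATAAAaaaaaaacagca
PAPOLA intronic site (chr14:96532668-96532697, plus strand): ttaaAATAAAattgattgtagacactgaag
PAPOLG A-rich 3′ UTR site (chr2:60797557-60797586, plus strand): ttgtatagagctAAAAAAAttgaaaacaaa
PAPOLG most distal site (chr2:60802053-60802082, plus strand): aataagtaatcaAATAAAattgctttgata
PABPN1 main site (chr14:23325342-23325371, plus strand): aaagaattAAAAAAAAAAAAAAgaaaaaca
PABPN1 most distal named site (chr14:23326152-23326181, plus strand): tgaaAATAAAaattgtttggccttttgggt
PABPC4 first-exon site (chr1:39576665-39576694, minus strand): caaaatcctgAAAAAAAAAAAggaaaagaa
PABPC4 most distal site (chr1:39560816-39560845, minus strand): tcccAATAAAgaaaaaaaatctccataaaa
PAIP1 most distal site (chr5:43526271-43526300, minus strand): tgaaAATAAAgcttaaatagttgtttcctc
PAIP2 proximal site (chr5:139368934-139368963, plus strand): gcttAATAAAagtgctgagactgttactaa
PAIP2 middle site (chr5:139369062-139369091, plus strand): ccaaATTAAAagacctaaaccttaccaaat
PAIP2 most distal site (chr5:139369685-139369714, plus strand): aatatttaaaaaAATAAAtaatagtagaac

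Of the 23 sites, 12 had AATAAA within the 75 nt searched on the transcript strand (50 nt before the site and 25 nt after it), 3 had ATTAAA without AATAAA, 6 had neither, and for 2 intronic sites no transcript sequence was at hand. For scale, AATAAA lay in the last 75 nt of 36.6% of 83127 protein-coding transcripts, and ATTAAA without AATAAA in 9.02%. That span lies wholly before the annotated end, and transcripts with incomplete 3′ ends were not left out, so the shares are a rough guide only. Of the 16 sites that were not the most distal named site of their gene, 9 lay within 25 nt of an annotated transcript end. Of the 16 sites with at least 45 nt of known sequence around them, 9 had a run of 6 or more A there. The most distal PAPOLA and PABPC4 sites, with 40 and 26 nt known, are not in this count, although their lines above hold such runs. The reverse transcription primer needs an anchor base followed by a run of 6 A, per the labels' protocols, and how much of the signal at A-rich sites came from priming inside the transcript was not tested.

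Total reads of 6 of the 7 genes stayed within 2-fold of their control after each siRNA, and PAIP1 was the exception. A call on a total needed a 2-fold difference, an exact 95% interval that did not span 1, and 50 reads or more in either library. By this rule 1 of 7 genes was lower and 0 were higher after CF Im25 siRNA, where 12.1% of all units of neighbouring sites in the genome were lower and 13.1% higher. After CF Im59 siRNA 0 were lower and 0 higher, against 11.1% and 8.61% of all units. After CF Im68 siRNA 1 of 7 was lower and 0 were higher, against 6.96% and 11.2% of all units. With no siRNA the counts were 0 and 0, against 4.30% and 4.29%. A single call among 7 genes does not set them apart from these shares. The median log2 ratio of the 7 genes was -0.04 after CF Im25 siRNA, -0.25 after CF Im59 siRNA, -0.17 after CF Im68 siRNA and -0.09 with no siRNA, beside 0.00, -0.06, 0.07 and -0.04 over all tested units. TMM scaling raised every log2 ratio by 0.18 for CF Im68 siRNA, by 0.10 for CF Im59 siRNA and by 0.11 for no siRNA, and ended none of the calls on totals in these comparisons.

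**Figure D1:**
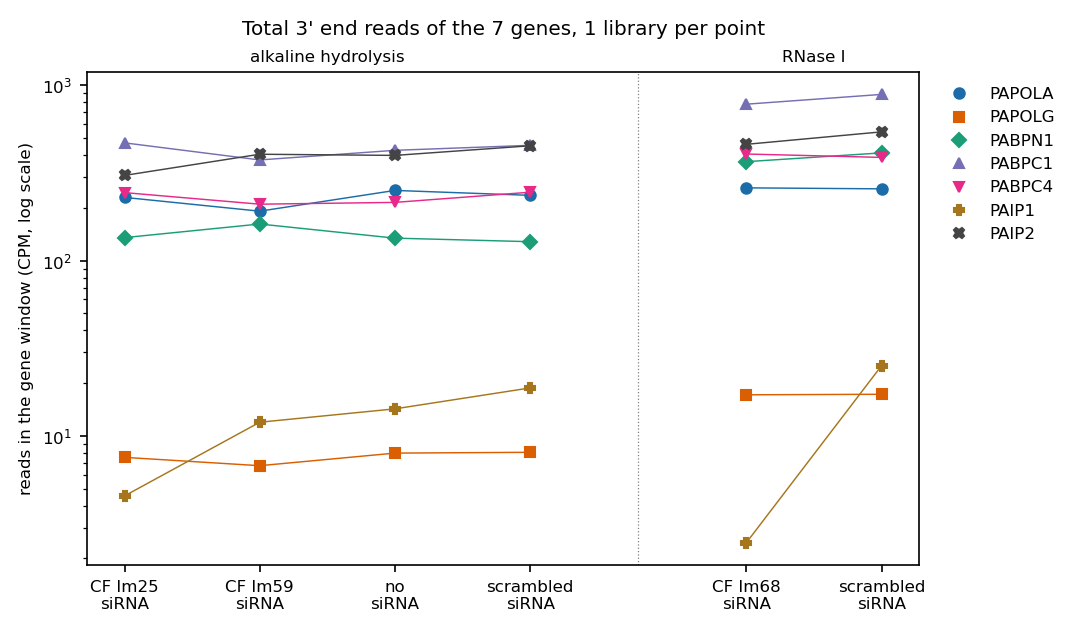
Reads in the window of each gene in CPM (log scale) in the 6 libraries, 1 point per library, with alkaline libraries left of the dotted line and RNase I libraries right of it. PAIP1 fell to 4.55 CPM with CF Im25 siRNA against 18.8 CPM with scrambled siRNA, and to 2.46 CPM with CF Im68 siRNA against 25.2 CPM.

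PAPOLA, the main nuclear poly(A) polymerase, kept its total and had much of its 3′ UTR use at an upstream site after CF Im25 or CF Im68 siRNA. Its window held 229 CPM with CF Im25 siRNA, 191 CPM with CF Im59 siRNA and 251 CPM with no siRNA, against 235 CPM with scrambled siRNA, and 260 CPM with CF Im68 siRNA against 256 CPM in its control. The most distal site, at position 97033431 of chromosome 14 (hg19, plus strand), lies in the last exon, and a proximal site at 97031392 lies 2039 nt upstream in the same 3′ UTR. Both carry AATAAA in the sequences above.

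The proximal PAPOLA site had 603 reads with CF Im25 siRNA, 43 with CF Im59 siRNA and 98 with no siRNA, against 88 reads with scrambled siRNA. In the RNase I libraries it had 670 reads with CF Im68 siRNA against 19 with scrambled siRNA. Thus the CF Im25 and CF Im68 libraries were high, and all the others were low. In CPM the site rose 6.15-fold after CF Im25 siRNA (95% interval 4.91 to 7.78) and 15.1-fold after CF Im68 siRNA (9.58 to 25.2). After CF Im59 siRNA it fell to 3.73 CPM against 10.1 CPM (ratio 0.368, interval 0.249 to 0.535), a call that was lost against the no siRNA library, which had 5.92 CPM.

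Of the reads at the PAPOLA proximal and distal sites, the proximal share was 37.2% with CF Im25 siRNA, 2.74% with CF Im59 siRNA and 3.56% with no siRNA, against 6.43% with scrambled siRNA. It was 38.00% with CF Im68 siRNA against 2.94% in its control. The change was 30.7 points after CF Im25 siRNA (Newcombe interval 28.0 to 33.4) and 35.1 points after CF Im68 siRNA (32.3 to 37.6). This 3′ UTR pair was chosen after values were seen. The pair set by the planned rule, the most used sites of the whole window, takes the intronic site at 96999032 instead, and its share was called in none of the 4 comparisons. All reads upstream of the distal site, introns included, made up 53.9% with CF Im25 siRNA against 37.3% in the scrambled siRNA library, and 61.6% with CF Im68 siRNA against 47.7%. These changes of 16.7 and 13.9 points were not called. The mean position of 3′ UTR ends lay 758 nt upstream of the distal site with CF Im25 siRNA, 55.8 nt with CF Im59 siRNA and 72.6 nt with no siRNA, against 131 nt with scrambled siRNA. With CF Im68 siRNA it lay 775 nt upstream, against 59.9 nt in its control.

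PAPOLA also ended inside introns in every library. The site at 96998068 lies in intron 7 and that at 96999032 in intron 9 of the annotated 22-exon transcript, and each was placed within 25 nt of the end of a transcript annotated as a retained intron. The intron 7 site held 9.21% of window reads with CF Im25 siRNA, 5.94% with CF Im59 siRNA and 17.2% with no siRNA, against 10.9% in the scrambled siRNA library, and 12.3% with CF Im68 siRNA against 14.8% in its control. In CPM it fell to 11.4 after CF Im59 siRNA against 25.7 (ratio 0.442, interval 0.354 to 0.551), and the call held against no siRNA, which had 43.2 CPM. The intron 9 site held 8.45% to 11.8% in the alkaline libraries and 18.2% and 21.1% in the RNase I libraries, and was called in no comparison with scrambled siRNA of its own method. The 5 other called PAPOLA sites, all in introns, held at most 3.92% each.

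PAPOLG, a second nuclear poly(A) polymerase, was sparse, so its site shares carry wide intervals. Its window held 73 reads with CF Im25 siRNA, 78 with CF Im59 siRNA and 132 with no siRNA, against 70 with scrambled siRNA. In the RNase I libraries it held 188 reads with CF Im68 siRNA against 81. Scaled, these were 6.76 to 8.06 CPM in the alkaline libraries and 17.2 CPM with CF Im68 siRNA against 17.3 CPM in its control.

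Within the PAPOLG window, ends moved upstream after CF Im68 siRNA. The site at position 61024723 of chromosome 2 (hg19, plus strand), 4498 nt upstream of the most distal site, had 78 reads with CF Im68 siRNA against 1 read in its control. It had 5 reads with CF Im25 siRNA, 0 with CF Im59 siRNA and 2 with no siRNA, against 5 with scrambled siRNA, so it was high in 1 library alone. The ratio after CF Im68 siRNA was 33.4, with an interval of 5.82 to 1335 that reflects the single control read. The site passed the mean of 1 CPM needed for a called site only through the CF Im68 library. It had 7.12 CPM there and at most 0.576 CPM in any other library, so its ratio is a description only. This site carries no AATAAA or ATTAAA in the span searched and lies beside a run of 7 A.

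The most distal PAPOLG site, at 61029221, had 6 reads with CF Im68 siRNA against 27 reads in its control, or 0.548 CPM against 5.76 CPM. The site at 61025604 has neither hexamer and lies within 25 nt of the end of a transcript annotated as a retained intron. It had 54 reads with CF Im68 siRNA against 38, but scaled it was lower, at 4.93 CPM against 8.11 CPM. The share below thus rose because the most distal site fell further, not because this site gained. Of the reads at these sites, the proximal share was 90.0% of 60 reads with CF Im68 siRNA against 58.5% of 65 reads, a change of 31.5 points (interval 16.4 to 44.8). In the alkaline libraries this share was 80.0% with CF Im25 siRNA, 85.4% with CF Im59 siRNA and 70.5% with no siRNA, against 80.0% with scrambled siRNA, and with 25 reads in that control no change could be called. By the planned rule the PAPOLG pair takes an intronic site at 61015175 and held too few reads to be tested in any of the 4 comparisons. Over all ends upstream of 61029221, the share was 96.8% with CF Im68 siRNA against 66.7%, a called change of 30.1 points.

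PABPN1, the nuclear poly(A)-binding protein, had most of its ends at 1 site and no called difference from its controls. Its window held 135 CPM with CF Im25 siRNA, 162 CPM with CF Im59 siRNA and 134 CPM with no siRNA, against 128 CPM with scrambled siRNA. With CF Im68 siRNA it held 366 CPM against 411 CPM. The main site, at position 23794544 of chromosome 14 (hg19, plus strand), held 94.0%, 91.8% and 90.4% of window reads with CF Im25, CF Im59 and no siRNA, against 94.1% in the scrambled siRNA library, and 83.9% with CF Im68 siRNA against 84.7%.

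The PABPN1 main site lies in the 3′ UTR in last exon 7, 819 nt upstream of the named site at the gene's end. The 51 nt around it are 80.4% A with a run of 14 A, whose start is also the end of an ATTAAA, and an annotated protein-coding transcript ends within 25 nt of it. The site at 23795363, which has AATAAA and an annotated end, held 1.22% with CF Im25 siRNA, 1.45% with CF Im59 siRNA and 2.16% with no siRNA, against 1.44% with scrambled siRNA. It held 7.40% with CF Im68 siRNA against 8.04% in its control. A called site just downstream, at 23795393, also with AATAAA and an annotated end, is not in these shares. That downstream site held 0.765% with CF Im25 siRNA, 1.72% with CF Im59 siRNA and 2.12% with no siRNA, against 2.61% with scrambled siRNA. With CF Im68 siRNA it held 0.822% against 0.778%. No pair could be formed for PABPN1, since no second site held 5% of the reads in the mean. The 3′ end of PABPN1 is also that of the annotated readthrough gene BCL2L2-PABPN1, so reads of these transcripts cannot be told apart here.

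PABPC1, the main cytoplasmic poly(A)-binding protein, had ends both in its first exon and at its 3′ end, and the balance between them differed between the fragmentation methods. At position 101734245 of chromosome 8 (hg19, minus strand), in the 5′ UTR, there were 2624 reads with CF Im25 siRNA, 2192 with CF Im59 siRNA and 4492 with no siRNA, against 2785 with scrambled siRNA. There were 688 reads with CF Im68 siRNA against 219 in its control. These are 57.8%, 50.7%, 63.9% and 70.7% of window reads in the alkaline libraries in that order, and 8.06% against 5.27% in the RNase I libraries. Differences between the methods were common: in the scrambled siRNA libraries, the level of 40.3% of all sites was at least 2-fold lower with RNase I, and of 27.7% higher. The sequence around this site has a run of 8 A, ATTAAA, and no annotated transcript end within 25 nt.

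At the 3′ end of PABPC1, the most distal site at 101715144 rose to 95.9 CPM with CF Im25 siRNA against 46.9 CPM with scrambled siRNA (2.05-fold, interval 1.82 to 2.30). This passed 2-fold narrowly, and against the no siRNA library, with 61.2 CPM, the ratio was 1.57 and not called. CF Im59 siRNA gave 89.1 CPM, 1.90-fold and not called. With CF Im68 siRNA the site had 363 CPM against 317 CPM. A second 5′ UTR site, at 101734212, fell to 30.2 CPM with CF Im68 siRNA against 102 CPM (ratio 0.297, interval 0.258 to 0.343). The neighbouring 5′ UTR site at 101734245 went the other way, to 62.8 CPM with CF Im68 siRNA against 46.7 CPM. In the alkaline libraries the second site had 42.6 CPM with CF Im25 siRNA, 51.7 CPM with CF Im59 siRNA and 51.2 CPM with no siRNA, against 43.4 CPM.

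The whole PABPC1 window held 469 CPM with CF Im25 siRNA, 375 CPM with CF Im59 siRNA and 425 CPM with no siRNA, against 454 CPM with scrambled siRNA, and 779 CPM with CF Im68 siRNA against 886 CPM. The unit of sites at the 3′ end alone held 146, 124 and 94.4 CPM, against 81.6 CPM with scrambled siRNA, and 676 CPM with CF Im68 siRNA against 724 CPM. Within it, the site at 101715495 took 24.6% with CF Im25 siRNA, 16.7% with CF Im59 siRNA and 23.4% with no siRNA of the reads it shared with the most distal site, against 31.2% with scrambled siRNA. With CF Im68 siRNA its share was 38.2% against 50.5%, and none of the changes, from -6.64 to -14.6 points, passed 20 points. Of these changes 3 share the scrambled alkaline control, and against the no siRNA library the CF Im25 change was 1.16 points (interval -2.15 to 4.49). PABPC1 has 13 named pseudogenes in GENCODE 29 and PAIP1 has 1, and how reads that map to several places were handled is not given in the sources used here, so these levels are uncertain.

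PABPC4, another cytoplasmic poly(A)-binding protein, likewise had ends in its first exon and at its 3′ end. The first-exon site, at position 40042366 of chromosome 1 (hg19, minus strand), lies in the 5′ UTR at the run of 11 A shown above, with neither hexamer. It had 1082 reads with CF Im25 siRNA, 826 with CF Im59 siRNA and 1814 with no siRNA, against 1361 in the scrambled siRNA library, and 3152 with CF Im68 siRNA against 1291. The most distal site, at 40026492, had 1214, 1538 and 1669 reads, against 702 with scrambled siRNA, and 1140 reads with CF Im68 siRNA against 438.

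The first-exon share of the PABPC4 pair was 47.1% with CF Im25 siRNA, 34.9% with CF Im59 siRNA and 52.1% with no siRNA, against 66.0% with scrambled siRNA. It was 73.4% with CF Im68 siRNA against 74.7%. The scrambled alkaline library thus had the highest share of the 4 alkaline ones. The change was -31.0 points after CF Im59 siRNA (interval -33.8 to -28.2), which was the 1 distal call among the 5 genes tested there, where 4.76% of all pairs shifted distally and 2.53% proximally. Pairs over all units join sites with gaps of at most 5 kb, whereas this pair spans 15874 nt from first exon to 3′ end, so those shares describe another kind of pair. Against the no siRNA library it was -17.1 points, and the call was lost. CF Im25 siRNA gave -18.8 points and no siRNA -13.9 points, neither called. In CPM the first-exon site fell to 71.6 with CF Im59 siRNA against 157 (ratio 0.457, interval 0.418 to 0.498), and against 109.7 CPM with no siRNA this call was lost too. The PABPC4 window as a whole held 244 CPM with CF Im25 siRNA, 210 CPM with CF Im59 siRNA and 215 CPM with no siRNA, against 245 CPM, and 405 CPM with CF Im68 siRNA against 387 CPM.

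**Figure D2:**
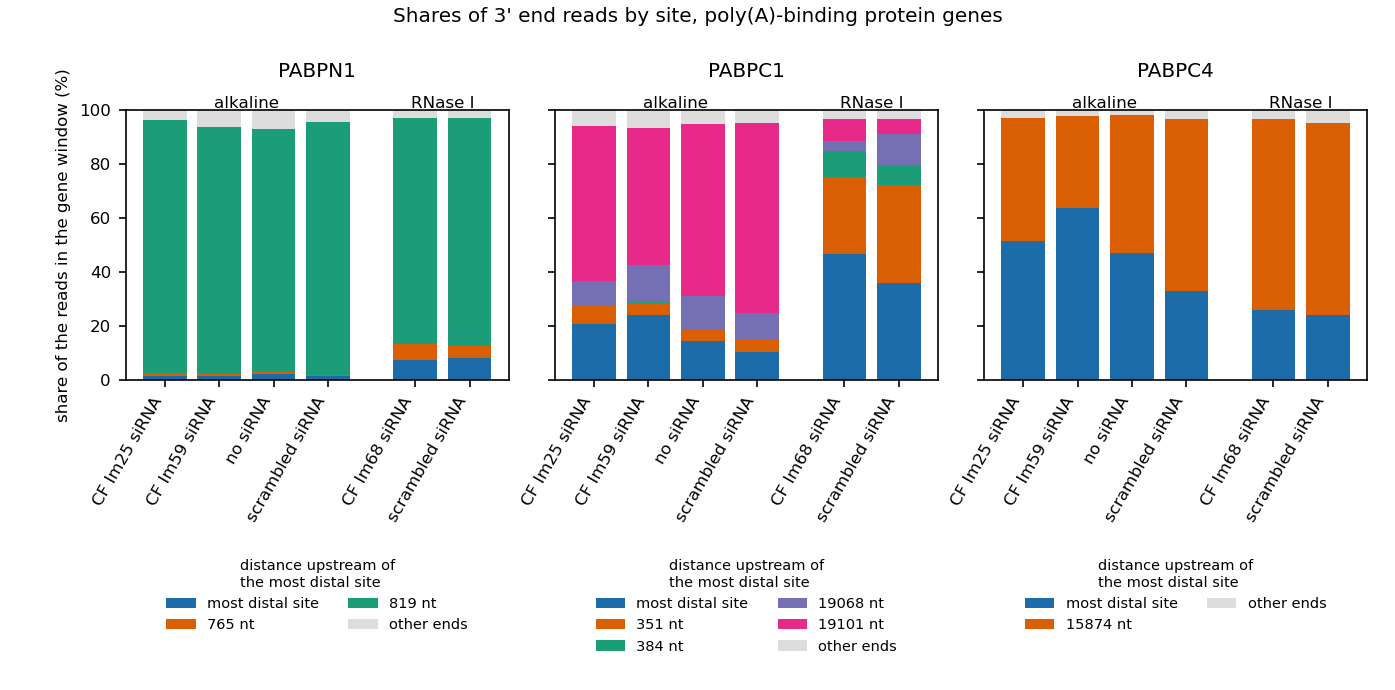
Share of each gene's window reads (%) at its named sites, 1 bar per library, with sites labelled by their distance upstream of the most distal one. PABPC1 ends 19101 nt upstream, in the first exon, fill 57.8% of the CF Im25 siRNA bar against 70.7% with scrambled siRNA, but 8.06% with CF Im68 siRNA against 5.27%.

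**Figure D3:**
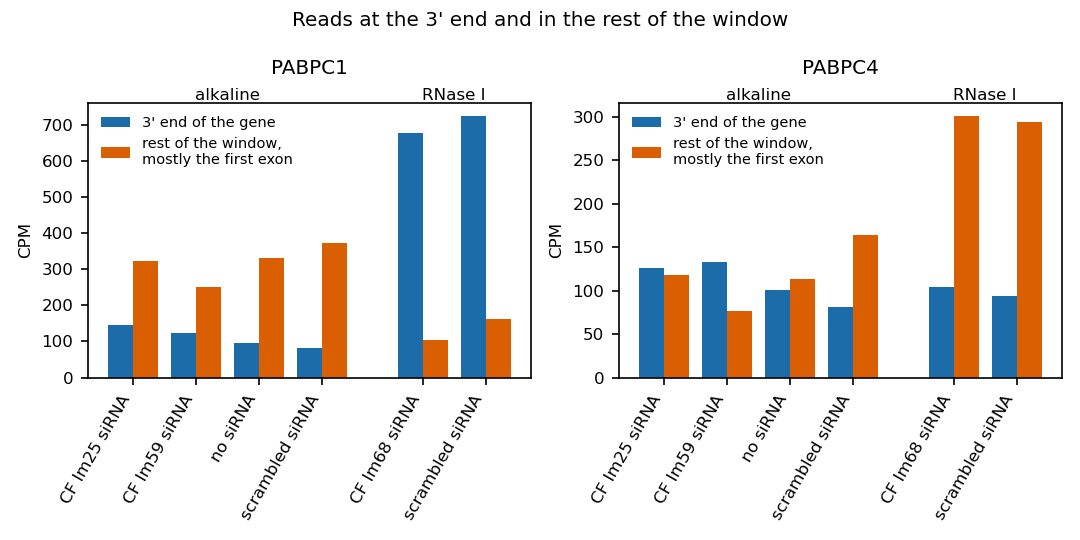
CPM at the 3′ end of PABPC1 and PABPC4 (blue) and in the rest of the window, mostly the first exon (orange), 1 pair of bars per library, with axes starting at 0. In PABPC1 the blue bars are 676 CPM with CF Im68 siRNA and 724 CPM with scrambled siRNA (RNase I), and at most 146 CPM in the alkaline libraries.

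PAIP1, which stimulates PABP-dependent translation, was the only gene whose total was called lower by the 2-fold rule. Its window held 44 reads with CF Im25 siRNA, 138 with CF Im59 siRNA and 236 with no siRNA, against 163 with scrambled siRNA. In the RNase I libraries it held 27 reads with CF Im68 siRNA against 118. Scaled, these were 4.55, 11.97 and 14.3 CPM, against 18.8 CPM with scrambled siRNA, and 2.46 CPM with CF Im68 siRNA against 25.2 CPM. The CF Im25 and CF Im68 libraries were the lowest of the 6. The total was 4.13-fold lower after CF Im25 siRNA (interval 2.94 to 5.90) and 10.2-fold lower after CF Im68 siRNA (6.68 to 16.1). Against the no siRNA library the log2 ratio after CF Im25 siRNA was -1.65 and still called.

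The most distal PAIP1 site, at position 43526372 of chromosome 5 (hg19, minus strand), in the last exon 11 and with AATAAA, had 12 reads with CF Im25 siRNA, 74 with CF Im59 siRNA and 161 with no siRNA, against 114 with scrambled siRNA. It had 12 reads with CF Im68 siRNA against 105. It was 10.6-fold lower after CF Im25 siRNA (interval 5.83 to 21.1), 2.05-fold lower after CF Im59 siRNA (1.51 to 2.78) and 20.5-fold lower after CF Im68 siRNA (11.2 to 40.8). The CF Im59 call was lost against the no siRNA library, where the ratio was 0.659.

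The only other called PAIP1 site, at 43541416 in intron 4, had 22 reads with CF Im25 siRNA, 38 with CF Im59 siRNA and 41 with no siRNA, against 28 with scrambled siRNA, and 0 reads with CF Im68 siRNA against 1. It had fewer than 50 reads in every library and could not be called, and its ratio after CF Im25 siRNA was 0.705 (interval 0.384 to 1.28). Ends outside the 3′-most site made up 72.7% of PAIP1 reads with CF Im25 siRNA (Wilson interval 58.2 to 83.7), 46.4% with CF Im59 siRNA and 31.8% with no siRNA, against 30.1% with scrambled siRNA. They made up 55.6% with CF Im68 siRNA (37.3 to 72.4) against 11.0%. With CF Im68 siRNA none of these 15 outside reads lay at a called site. In CPM these outside ends were at 3.31 with CF Im25 siRNA against 5.65 with scrambled siRNA, and at 1.37 with CF Im68 siRNA against 2.77, too few reads for a call.

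PAIP2, which represses PABP-dependent translation, moved to upstream sites of its 3′ UTR after CF Im68 siRNA, with a smaller, uncalled change after CF Im25 siRNA. Its window held 306 CPM with CF Im25 siRNA, 404 CPM with CF Im59 siRNA and 398 CPM with no siRNA, against 451 CPM with scrambled siRNA, and 460 CPM with CF Im68 siRNA against 542 CPM, with no call. The most distal site, at position 138705406 of chromosome 5 (hg19, plus strand), had 189, 328 and 275 CPM, against 334 CPM with scrambled siRNA, and 239 CPM with CF Im68 siRNA against 469 CPM. The last ratio, 0.509, missed the 2-fold rule narrowly.

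The proximal PAIP2 site at 138704655, 751 nt upstream, had 507 reads with CF Im25 siRNA, 347 with CF Im59 siRNA and 586 with no siRNA, against 386 with scrambled siRNA. It had 1369 reads with CF Im68 siRNA against 136, and in CPM it rose 4.31-fold there (interval 3.61 to 5.17). The middle site at 138704774 also rose after CF Im68 siRNA, to 49.1 CPM against 14.3 CPM (3.44-fold, interval 2.66 to 4.50). After CF Im59 siRNA the middle site fell to 25.5 CPM against 51.4 CPM (ratio 0.496, interval 0.427 to 0.576), and against 72.6 CPM with no siRNA that call held.

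The proximal share of the PAIP2 pair was 21.7% with CF Im25 siRNA, 8.41% with CF Im59 siRNA and 11.4% with no siRNA, against 11.8% in the scrambled siRNA library, and 34.3% with CF Im68 siRNA against 5.83%. The change was 28.5 points after CF Im68 siRNA (interval 26.7 to 30.2), the 1 proximal call among the 4 genes tested by the planned rule, where 24.4% of all pairs shifted proximally and 1.78% distally. After CF Im25 siRNA it was 9.98 points (7.99 to 11.999), below the 20 points of the rule. There 0 of the 4 genes tested were called, against 18.3% of all pairs proximal and 2.81% distal. Of the pairs tested in these comparisons, only that of PAIP2 lay within a unit, as all pairs over the genome do. Those of PAPOLA, PABPC1 and PABPC4 spanned 34399, 19101 and 15874 nt, so the shares of all pairs describe another kind of pair. An intron 3 site at 138700901 had 124 reads with CF Im25 siRNA, 32 with CF Im59 siRNA and 25 with no siRNA, against 16 with scrambled siRNA, and 176 reads with CF Im68 siRNA against 19. This site held at most 4.19% of window reads, and it was singled out after its values were seen. Over the 3′-most unit of PAIP2, introns included, ends lay in the mean 619 nt upstream of the distal site with CF Im25 siRNA. This was 302 nt with CF Im59 siRNA and 324 nt with no siRNA, against 334 nt with scrambled siRNA. With CF Im68 siRNA it was 625 nt against 216 nt.

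**Figure D4:**
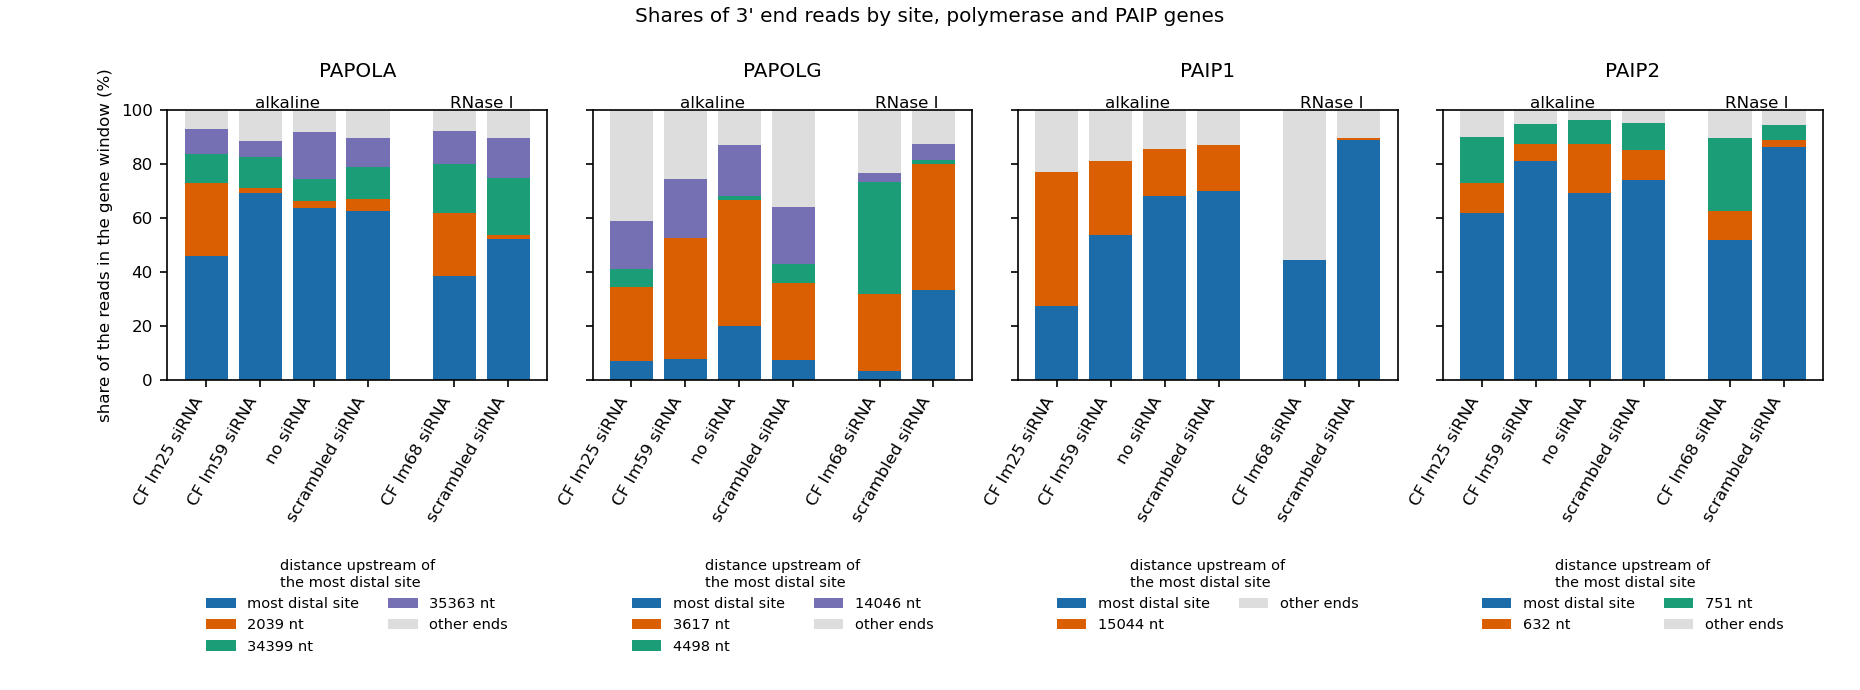
Share of window reads (%) at the named sites of the polymerase and PAIP genes, 1 bar per library, with sites labelled by their distance upstream of the most distal one. The PAPOLA site 2039 nt upstream fills 27.2% of the CF Im25 siRNA bar against 4.31% in the scrambled siRNA library, and 23.5% with CF Im68 siRNA against 1.58%.

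With the pair taken at the 3′ end, a choice made after values were seen, 4 of the 7 genes had a pair (PAPOLA, PAPOLG, PABPC1 and PAIP2). After CF Im25 siRNA 1 of the 3 tested (PAPOLA) was called proximal, beside 18.3% of all pairs. After CF Im68 siRNA 3 of 4 (PAPOLA, PAPOLG and PAIP2) were called proximal, beside 24.4%. The PAPOLA pair met the 5% minimum in the mean through the CF Im25 and CF Im68 libraries, where its proximal share is high, so these counts are a description and nothing is read from them. After CF Im59 siRNA 0 of 3 were called, beside 2.53% proximal and 4.76% distal, and with no siRNA 0 of 3, beside 1.21% and 2.52%.

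**Figure D5:**
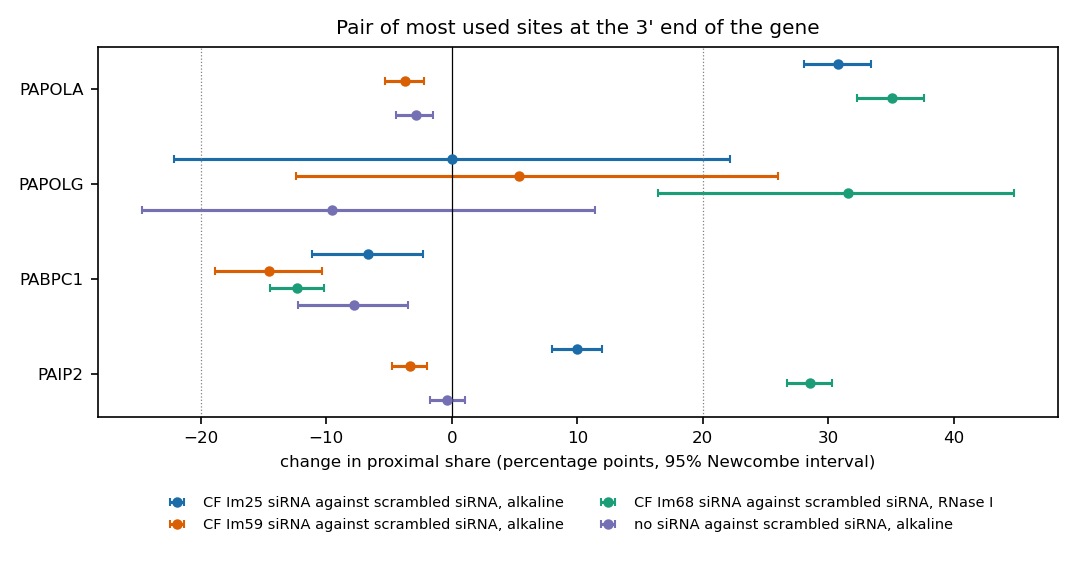
Change in proximal share (percentage points, knockdown or no siRNA minus scrambled siRNA) of the 3′-end pair of 4 genes, with bars for the 95% Newcombe interval and dotted lines at the 20 points of the rule. PAPOLA moved by 30.7 points after CF Im25 siRNA and 35.1 points after CF Im68 siRNA, and no change of PABPC1 passed 20 points.

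Counted over single sites with at least 50 reads in either library, a summary chosen after values were seen, the same 2-fold rule called 2 of 15 tested sites higher and 1 lower after CF Im25 siRNA, where 19.2% and 17.0% of all sites were. With CF Im59 siRNA 5 of 15 were lower and 0 higher, beside 13.0% and 10.4%. With CF Im68 siRNA the rule called 4 of 20 higher and 2 lower, beside 23.2% and 11.4%. With no siRNA 0 of 16 were called in either direction, beside 5.63% higher and 4.85% lower. The 5 lower sites after CF Im59 siRNA lay in PAPOLA (2 sites), PABPC4, PAIP1 and PAIP2, and against the no siRNA library 3 of the 5 calls were lost, as given above. Sites were named for holding 5% in any 1 library, and the proximal PAPOLA site reached this only in the CF Im25 and CF Im68 libraries, where it is high. The PAPOLG site at 61024723, among those called higher after CF Im68 siRNA, passed the minimum of 1 CPM through that library alone. The counts therefore depend in part on how the sites were chosen, and nothing is read from them against the shares of all sites.

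The scrambled siRNA libraries, RNase I against alkaline, show how far these genes moved with the library method alone, although the libraries may differ in more than fragmentation. Of the 7 genes, 2 were higher by the 2-fold rule (PAPOLG and PABPN1) and 0 lower, where 23.8% of all units were higher and 34.8% lower. PABPN1 had 411 CPM with RNase I against 128 CPM (3.21-fold, interval 2.98 to 3.46), and PAPOLG 17.3 CPM against 8.06 CPM (2.14-fold, interval 1.54 to 2.99). PABPC1 was 1.95-fold higher, just under the rule, and under TMM scaling it passed. At its 3′ end alone PABPC1 had 724 CPM with RNase I against 81.6 CPM (8.88-fold, interval 8.19 to 9.64).

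Single sites moved by larger amounts between the methods, with 7 of 18 tested sites higher and 3 lower, beside 27.7% and 40.3% of all sites. The PABPC1 site in the 5′ UTR at 101734245 fell to 46.7 CPM with RNase I against 321 CPM. The PABPC1 site in the 3′ UTR at 101715495 rose to 324 CPM against 21.3 CPM (15.2-fold, interval 13.1 to 17.8). That 3′ UTR site is A-rich, but it also has AATAAA. It was placed within 25 nt of the end of a transcript annotated as nonsense-mediated decay. The first-exon share of the PABPC1 pair was 12.8% with RNase I against 87.2%, a change of -74.4 points (interval -76.3 to -72.4) and the 1 distal call among 5 genes tested, beside 21.1% of all pairs distal and 24.7% proximal, which are pairs within units and not of first exon and 3′ end. PABPC4 did not follow PABPC1 in this: its first-exon share was 74.7% with RNase I against 66.0%. The proximal PAPOLA site fell to 4.05 CPM with RNase I against 10.1 CPM (ratio 0.400, interval 0.230 to 0.662), and the middle PAIP2 site fell to 14.3 CPM against 51.4 CPM. The 7 higher sites were the 3 of PABPN1 and 4 of the 5 of PABPC1. Of these, the PABPC1 site at 101715528 and the PABPN1 sites at 23794598 and 23795363 reached the 5% minimum in RNase I libraries only, so nothing is read from the count.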

How the data were processed

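A-seq reads of 6 HEK293 libraries, 1 per group, were analysed. Per the labels, poly(A) RNA was fragmented by alkaline hydrolysis (4 libraries) or RNase I (2 libraries). The deposited files give counts: the number of reads ending at each nucleotide and strand, unscaled. The builds hg19 and GRCh37 are named in the submitters' processing notes. The aligner and filters, and whether duplicate, multiply mapped or internally primed reads were removed, is not given in the sources used here.

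The genes, windows and comparisons were chosen with earlier results of these data known. Sites were called once on the libraries pooled at equal weight: the highest position with all ends within 25 nt either side, kept at a mean CPM of at least 1 (49965 sites from 2438055 positions). Sites on a strand with gaps of at most 5 kb formed units (28114 nuclear, 8999 with a pair), which give the shares over all features. Window reads were scaled to reads at nuclear called sites. Every gene was described, with each site holding at least 5% of its window's reads at called sites in 1 library. A pair is the 2 most used sites of the window with at least 5% each in the mean. A pair was called shifted at 20 points with at least 50 reads in both libraries and a 95% Newcombe interval that excluded 0. Ratios have exact conditional binomial 95% intervals, single shares Wilson intervals. With 1 library per group no test was made and no p-value is given.

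Alternatives were TMM (edgeR 4.0.16) and median-of-ratios scaling (DESeq2 1.42.0), all reads as denominator, reads at called sites only, thinning, no siRNA as control, other site widths and minimums, and, chosen after seeing the data, the 3′-most unit alone, windows without the first-exon unit, the 3′-most pair, and counts of calls over single sites. The calling steps were tested on simulated data. Python 3.11.15, pandas 2.3.3 and scipy 1.17.1 were used. Correlations between genes over libraries are not given, since the 6 libraries fall into 2 sets by fragmentation. Other poly(A) tail genes and the siRNA targets' own transcripts were not analysed here, because no annotation of the files' build was used. GENCODE 29 served for transcript structure and sequence only, with no conversion of coordinates.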

Additional observations from a re-analysis of the deposited data

How the results depend on the processing

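With 1 library per group, no alternative could leave out a replicate. No paired analysis was possible because each group held 1 library. PAIP1 stayed called lower with CF Im25 siRNA and with CF Im68 siRNA under every alternative run for totals. With only the 3′-most unit, 1 gene (PAIP1) was lower after CF Im59 siRNA in place of 0. The count of pairs shifted distally after CF Im59 siRNA, 1 as reported (PABPC4), was 2 with sites of 12 nt either side, where PABPC1 moved by -20.2 points, 0 against no siRNA, and 0 with the 3′-most pair, which PABPC4 lacks. Thinning to the smallest library gave 1 proximal pair after CF Im59 siRNA (PAIP1) in place of 0. Proximal pairs after CF Im68 siRNA, 1 as reported, were 2 with the most distal site set against all upstream reads and 3 with the 3′-most pair, and after CF Im25 siRNA 1 with the 3′-most pair in place of 0. The RNase I against alkaline change of the PABPC1 pair, -74.4 points, was 19.3 points with the 3′-most pair, which compares other sites.

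Over all units, with no minimum of reads, 3636 were higher and 3660 lower after CF Im25 siRNA (1968 and 1810 as reported), 2444 and 3613 after CF Im59 siRNA (1314 and 1695), 3285 lower after CF Im68 siRNA (942), and 1208 and 2278 with no siRNA (721 and 722). With at least 20 reads, distal pairs were 355 (188) with CF Im25 siRNA, 202 (94) with CF Im68 siRNA, and proximal and distal pairs were 291 and 558 after CF Im59 siRNA (174 and 328) and 171 and 338 with no siRNA (87 and 181). Of the other counts over genes, units and pairs, 95 under planned and 20 under added alternatives stayed within 1.5 times. Of values of single genes or sites, 92 under planned and 37 under added alternatives moved beyond their counting interval, and the PABPC1 pair named above was the 1 called value that changed sign. Depth limits PAPOLG and PAIP1 most: at 25 to 88 pair reads in the alkaline libraries, PAPOLG shifts of 20 points were not detectable.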

Other observations

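Most ends of a site fell on 1 nucleotide in some genes and were spread in others. At the most distal PAIP2 site, 92.1% of the reads with CF Im25 siRNA, 91.5% with CF Im59 siRNA and 92.3% with no siRNA lay on the peak nucleotide, against 92.4% in the scrambled siRNA library, and 73.7% with CF Im68 siRNA against 78.1%. At the main PABPN1 site, in its A-rich stretch, the peak nucleotide held 36.0%, 35.1% and 31.1%, against 33.9% in the scrambled siRNA library, and 15.0% with CF Im68 siRNA against 17.2%. The most distal PAPOLA site was spread as well, with 17.3% to 28.98% in the alkaline libraries and 34.5% and 39.6% in the RNase I libraries.

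A PAPOLA site in intron 7 at position 96998042 (hg19), 26 nt upstream of the named one, had 45 reads with CF Im68 siRNA and 20 with scrambled siRNA in the RNase I libraries, and at most 1 read in each alkaline library. It was singled out after its values were seen. Reads on the opposite strand were 4 to 14 per library for PAPOLA, 0 to 13 for PABPC4 and 0 to 4 for PABPC1, PABPN1 and PAIP2. In the sparse genes they were a larger part: PAIP1 had 5 beside 44 reads with CF Im25 siRNA, 4 beside 27 with CF Im68 siRNA and 22 beside 236 with no siRNA, and PAPOLG had 10 beside 73 with CF Im25 siRNA.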
